A study of Mus musculus with 1617 samples.

Results

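Microglia of the visual cortex of mice at postnatal day 14 (P14) were divided by their own level of Mrc1, and 58 cells with high Mrc1 were set against 64 cells without it. Cells were called Mrc1-high at 100 TPM (a relative transcript abundance, corrected for gene length) or more and Mrc1-negative below 1 TPM. The other 28 of the 150 cells lay between these limits, and the series holds 1617 cells in all. The 150 cells are those of P14 visual cortex whose descriptions name paired-end reads.

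The study profiled macrophages of mouse brain one by one, from the embryo to the adult and in several regions. Cells were sorted as positive for CD45, F4/80 and CD11b and negative for Ly6C, a gate that admits microglia and other resident macrophages of the brain. A Fluidigm C1 chip captured them, and a Nextera XT library was made from each. Mrc1-high and Mrc1-negative cells share age, region, sort and read layout, and the labels give no treatment, strain, genotype, sex, animal or preparation for either.

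Mrc1 encodes the macrophage mannose receptor, an endocytic receptor for mannose-bearing glycoproteins, and in the brain it is best known as a marker of the macrophages of the meninges and perivascular spaces. Sall1 encodes a zinc-finger transcription factor that marks microglia among macrophages and maintains their identity. Around this age the eyes of a mouse open and the visual cortex refines its synapses, a process in which microglia take part.

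Mrc1 lies on chromosome 2, 14229392 to 14332057, plus strand, of GRCm38. Its level chose the groups and is given only as a description. Among Mrc1-high cells the lowest value was 110.8 TPM, the median 440.9 TPM and the highest 2386 TPM, and 5 cells reached 1000 TPM. Of the Mrc1-negative cells, 56 were at 0 and 8 lay above it, up to 0.96 TPM. The cells nearest to the upper limit had 91.5 and 92.2 TPM below it and 110.8 and 114.6 TPM above it, and the first cell past the lower limit had 1.66 TPM.

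Every comparison below sets cells of unknown animals against each other, so a group counts as 1 sample. No test was made, and the ranges, shares and ratios describe these cells. The groups were also cut on a transcript of the same libraries, and genes seen per cell moved with them. The count of genes seen at 1 TPM or more had a median of 2734 in Mrc1-high cells (1748 to 4549), against 2507 (up to 3484) in Mrc1-negative cells. All 6 cells under 1000 genes were Mrc1-negative. The titles' numbers fall into 2 unbroken runs, of unstated meaning. The lower-numbered run held 24 Mrc1-high and 29 Mrc1-negative cells, and the higher-numbered run held 34 and 35. The part of genes per cell in the differences below was not tested. Counts without the 6 cells are given for the lists whose counts moved by over 1.5 times.

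**Figure D1:**
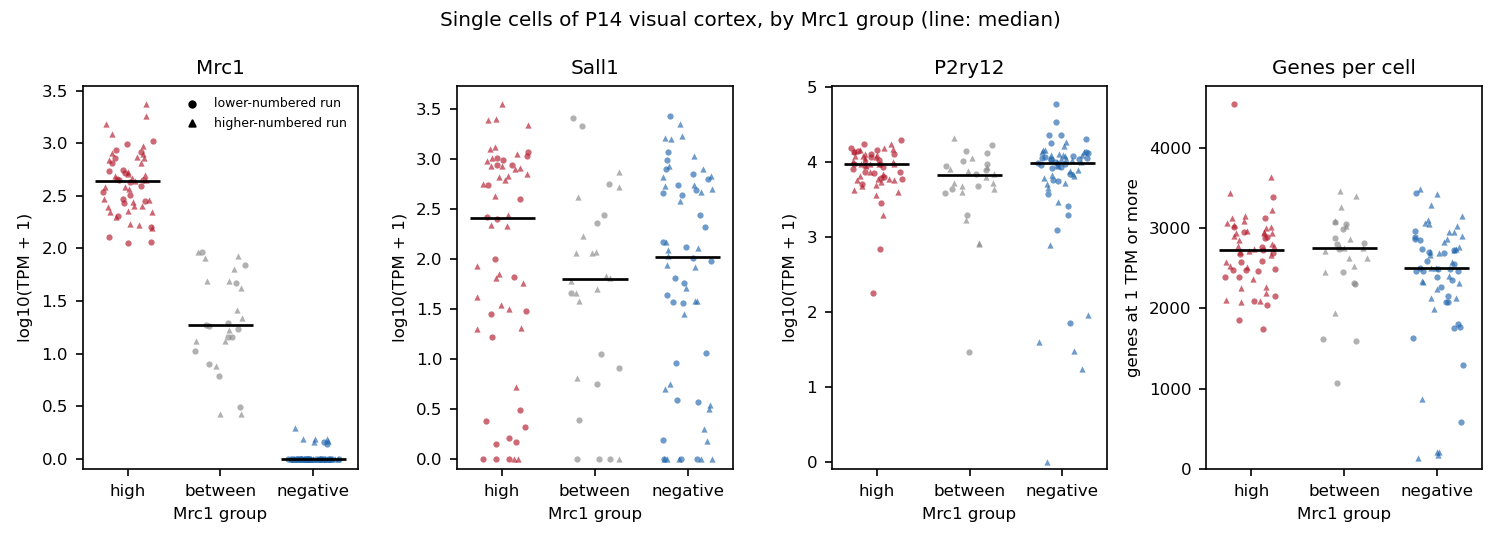
Mrc1, Sall1 and P2ry12 as log10(TPM + 1), and genes at 1 TPM or more, in each of the 150 cells by Mrc1 group (high, between, negative); circles and triangles are the lower- and higher-numbered title runs and lines are medians. The Mrc1 groups are apart by construction, while Sall1 and P2ry12 overlap. The 6 cells under 1000 genes are all Mrc1-negative and include the lowest and the highest P2ry12.

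Most cells of both groups carried markers of microglia. P2ry12, the purinergic receptor by which microglia sense nucleotides, had a lowest, median and highest value of 177.1, 9272 and 19364 TPM in Mrc1-high cells, against 0, 9809 and 59617 TPM in Mrc1-negative cells. It stood at 100 TPM or more in 58 of 58 Mrc1-high cells and in 58 of 64 Mrc1-negative cells. The groups overlapped, and the lowest cells were Mrc1-negative.

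Sall1 was the marker of microglial identity given with the groups. It ranged from 0 to 3591 TPM with a median of 257.05 TPM in Mrc1-high cells, and from 0 to 2696 TPM with a median of 103.5 TPM in Mrc1-negative cells. It was seen (1 TPM or more) in 50 of 58 Mrc1-high cells and in 53 of 64 Mrc1-negative cells. Without the cells under 1000 genes it was seen in 86.2% of Mrc1-high and 89.7% of Mrc1-negative cells, the reverse order. Its median in Mrc1-negative cells was then 125.5 TPM. At 100 TPM or more it stood in 32 Mrc1-high cells (55.2%) and in 33 Mrc1-negative cells (51.6%). Its mean was 557 TPM in Mrc1-high cells and 386 TPM in Mrc1-negative cells, a log2 ratio of 0.53 that was -0.12 in the lower-numbered run and 0.80 in the higher-numbered one. High Mrc1 and Sall1 at 100 TPM or more were thus found together in 32 cells, and the ranges of Sall1 in the groups overlapped.

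Log2 ratios are of mean TPM, each with 1 TPM added, in Mrc1-high over Mrc1-negative cells. A gene was taken as measured where its mean reached 5 TPM in at least 1 of the groups, and it was counted as higher or lower at 1.5-fold or more with the mean of log2(TPM + 1) on the same side. By this rule 35.3% of 10025 measured genes were higher in Mrc1-high cells and 23.8% were lower. The median of all measured genes was 0.17. Counts of list members are to be read against these shares.

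Of the 18 homeostatic genes of microglia, all were measured and none was higher or lower by this rule, with a median log2 ratio of 0.11 and a range of -0.51 to 0.54. Tmem119, a membrane protein used to tell microglia from other macrophages, averaged 658 TPM in Mrc1-high cells and 710 TPM in Mrc1-negative cells. Cx3cr1, the fractalkine receptor, averaged 5910 and 4067 TPM in Mrc1-high and Mrc1-negative cells. Selplg, a selectin ligand, averaged 613 TPM in Mrc1-high cells and 873 TPM in Mrc1-negative cells, and Gpr84, a receptor for medium-chain fatty acids, averaged 205.7 TPM in Mrc1-high cells and 294 TPM in Mrc1-negative cells. The number of these 18 genes at 100 TPM or more had a median of 15 in both groups. It ran from 11 to 18 in Mrc1-high cells and from 0 to 17 in Mrc1-negative cells, of which 6 had fewer than 10. As a difference of mean log2(TPM + 1) the median of the 18 genes was 0.68, beside 0.15 for all measured genes. That value was -0.025 without the 6 Mrc1-negative cells under 1000 genes, beside 0.07 for all genes. Over cells with 1000 genes or more, 0 of the 18 stood higher and 2 stood lower, and their median log2 ratio was 0.00.

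Genes listed as markers of macrophages of the brain's borders were uneven in Mrc1-high cells. At 100 TPM or more, 29 of 58 Mrc1-high cells and 37 of 64 Mrc1-negative cells had none of the list of 16 (without Mrc1), while 22 Mrc1-high and 25 Mrc1-negative cells had 1. F13a1, a coagulation factor subunit, Lyve1, a hyaluronan receptor, and Cd163, the scavenger receptor for haemoglobin, were listed at 0 in every cell of both groups, and so were Cd209f, Clec10a and Cd36. Only 6 of the other 10 genes of this list were measured. Of those 6, 4 stood higher and 0 lower, and the median of 2.02 depends on the 1 TPM added, since 3 of the 4 were at 0 in Mrc1-negative cells. Pf4, a platelet-factor chemokine, was seen in 3 of 58 Mrc1-high cells and was listed at 0 in all 64 Mrc1-negative cells. Folr2, a folate receptor, and Ms4a7 were each seen in 1 Mrc1-high cell and were listed at 0 in Mrc1-negative cells. Dab2, an endocytic adaptor, was seen in 19 of 58 Mrc1-high cells and 11 of 64 Mrc1-negative cells, with means of 101.3 and 55.6 TPM. Stab1, a scavenger receptor, was seen in 33 of 58 Mrc1-high and 38 of 64 Mrc1-negative cells, with means of 317 and 336 TPM. It was also seen in 24 of the 28 cells between, so Stab1 did not set Mrc1-high cells apart.

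The 16 genes summed to a lowest, median and highest value of 0, 92.7 and 4342 TPM in Mrc1-high cells, against 0, 53.2 and 3814 TPM in Mrc1-negative cells. At least 2 of them stood at 100 TPM or more in 7 of 58 Mrc1-high cells and in 2 of 64 Mrc1-negative cells. Stab1 and Dab2, which Mrc1-negative cells also carried, were each among them in 6 of those 7 Mrc1-high cells. Over the remaining cells the list's median was 0.15, a fall that follows from picking cells by these same genes. An Mrc1-high cell of the lower-numbered run held the most of these genes at 100 TPM or more. It had 5 of these genes, with Pf4 at 1038 TPM, Ms4a7 at 1120 TPM, Stab1 at 1115 TPM, Dab2 at 837 TPM and Clec12a at 154.6 TPM. Its Mrc1 was 200.9 TPM, its Sall1 was listed at 0 and its P2ry12 was 177.1 TPM, the lowest of the Mrc1-high cells, yet 11 of the 18 homeostatic genes were at 100 TPM or more. Pf4 was higher still, at 2899 TPM, in the cell with the highest Mrc1 (2386 TPM), which lay in the higher-numbered run. That cell had Stab1 at 1431 TPM, P2ry12 at 1933 TPM, Sall1 at 216.7 TPM and Tmem119 at 0.

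**Figure D2:**
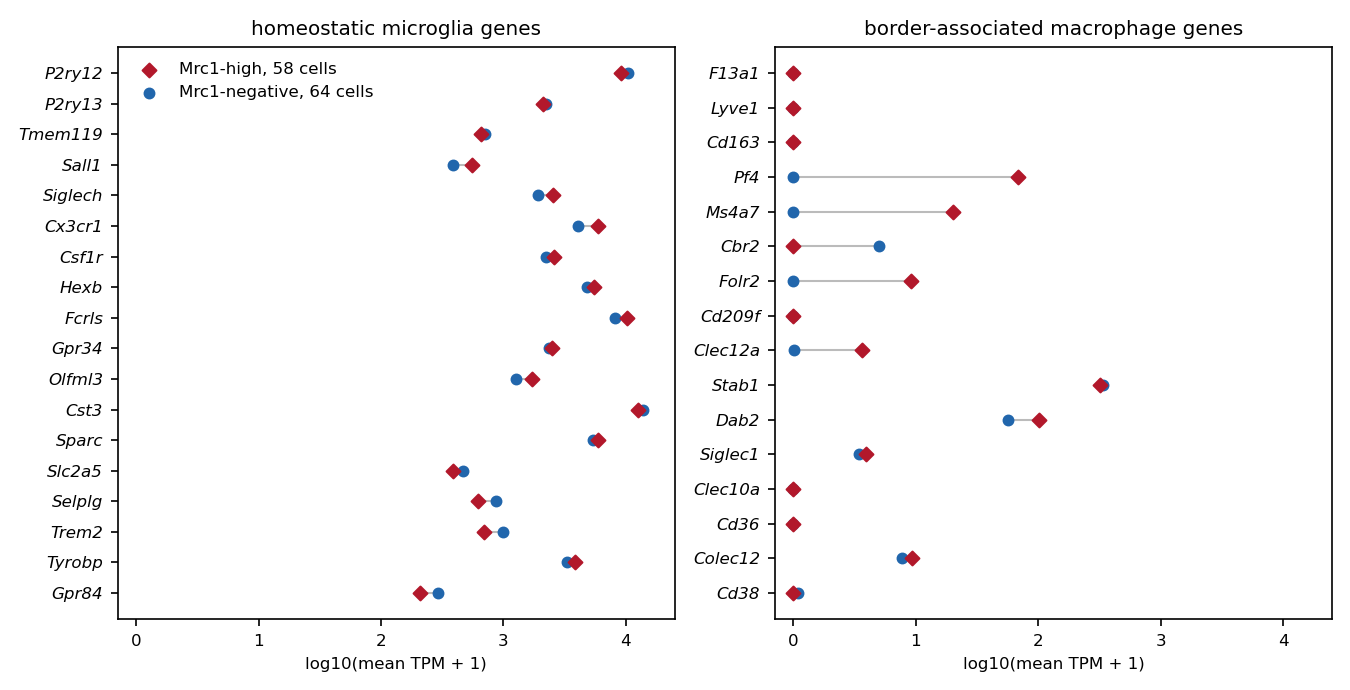
Mean TPM, as log10(mean TPM + 1), of 18 homeostatic microglia genes (left) and 16 border-associated macrophage genes (right) in 58 Mrc1-high cells (red diamonds) and 64 Mrc1-negative cells (blue circles). Homeostatic genes lie close together in both groups, while F13a1, Lyve1 and Cd163 are at 0 and Pf4, Ms4a7 and Folr2 are above 0 only in the Mrc1-high mean.

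Markers of other cell types were sparse. No cell of either group had 2 or more markers of monocytes, neutrophils, dendritic cells, T, B or natural killer cells, astrocytes, oligodendrocytes, neurons, endothelium, mural cells or erythroid cells at 100 TPM. The neutrophil, natural killer and erythroid lists summed to 0 in every cell of both groups. The highest sum in an Mrc1-high cell was 107.5 TPM for dendritic cell genes, 87.8 TPM for T cell genes and 4.16 TPM for mural cell genes, against 74.1, 113.1 and 13.6 TPM in Mrc1-negative cells. For oligodendrocyte and endothelial genes it was 1159 and 901 TPM in Mrc1-high cells, against 1198 and 1185 TPM in Mrc1-negative cells. For neuronal genes it was 1440 TPM in an Mrc1-high cell and less in every Mrc1-negative cell. The median sum of these 3 lists was 0 in both groups. The 8 monocyte genes summed to at most 34.7 TPM in an Mrc1-high cell and 572 TPM in an Mrc1-negative cell. The single measured gene of the B cell list, Cd79b, part of the B cell receptor, averaged 143.4 TPM in Mrc1-high cells and 280 TPM in Mrc1-negative cells. The 10 astrocyte genes reached at most 1741 TPM summed in an Mrc1-high cell and 2493 TPM in an Mrc1-negative cell, led by the glutamate transporter Slc1a3 with means of 61.4 and 120.6 TPM in Mrc1-high and Mrc1-negative cells, though its log2 ratio was 0.71 in the lower-numbered run.

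Genes of the cell cycle stood higher in Mrc1-high cells. Of 25 measured members, 16 were higher and 3 were lower, with a median log2 ratio of 2.06. Among enzymes of nucleotide supply, Rrm2, a subunit of ribonucleotide reductase, averaged 87.97 TPM in Mrc1-high cells and 1.92 TPM in Mrc1-negative cells, and Tyms, thymidylate synthase, averaged 93.8 and 20.7 TPM. Mcm3, a subunit of the replicative helicase, averaged 65.7 TPM in Mrc1-high cells and 22.8 TPM in Mrc1-negative cells, with a log2 ratio of -2.77 where Mrc1-high began at 200 TPM. Mki67, the proliferation antigen, averaged 37.4 TPM in Mrc1-high cells and 8.25 TPM in Mrc1-negative cells. The 3 lower genes were the cyclins Ccnb1 and Ccna2 and the ribonucleotide reductase subunit Rrm1, and Rrm1 averaged 9.96 TPM in Mrc1-high cells against 39.2 TPM in Mrc1-negative cells.

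These averages came from few cells, and the median of the list was 0.37 as a difference of mean log2(TPM + 1), beside 0.15 for all measured genes. As a log2 ratio the median was 0.99 in cells above the median of genes per cell and 3.13 in cells at or below it. It was 0.95 with 10 TPM added and 1.26 with no filter on low values. The median cell of either group had 2 of the 28 cell cycle genes in the table at 10 TPM or more. A count of 8 or more, a limit chosen after the values were seen, was reached by 6 of 58 Mrc1-high cells (10.3%, 95% interval 3.89 to 21.2), 1 of 28 cells between and 1 of 64 Mrc1-negative cells (1.56%, 0.0396 to 8.40). The highest counts were 18 in an Mrc1-high cell and 21 in an Mrc1-negative cell. Mki67 was seen in 8 of 58 Mrc1-high cells (13.8%) and 3 of 64 Mrc1-negative cells (4.69%). These intervals are exact (Clopper-Pearson) and cover counting error over cells only, and the share intervals overlap.

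The median of the cell cycle genes differed between the runs of title numbers. In the lower-numbered run it was 0.73, with 11 of the same members higher and 5 lower, beside 37.3% higher and 30.8% lower of all genes measured in that run. In the higher-numbered run it was 2.89, with 18 higher and 0 lower, beside 40.6% and 26.1% of all genes.

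Stmn1, which encodes the microtubule regulator stathmin and is abundant in dividing cells, had the largest difference in the share of cells among the 25 measured cell cycle genes. It was seen in 23 of 58 Mrc1-high cells (39.7%, 27.05 to 53.4), 6 of 28 cells between (21.4%) and 8 of 64 Mrc1-negative cells (95% interval 5.55 to 23.2%). Its mean was 329 TPM in Mrc1-high cells and 69.4 TPM in Mrc1-negative cells. The intervals of the 2 outer groups did not overlap, and the order held in both runs, with 9 of 24 against 5 of 29 cells and 14 of 34 against 3 of 35 cells. Stmn1 was picked by its difference in these same cells, so neither the intervals nor the runs are a separate check.

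**Figure D3:**
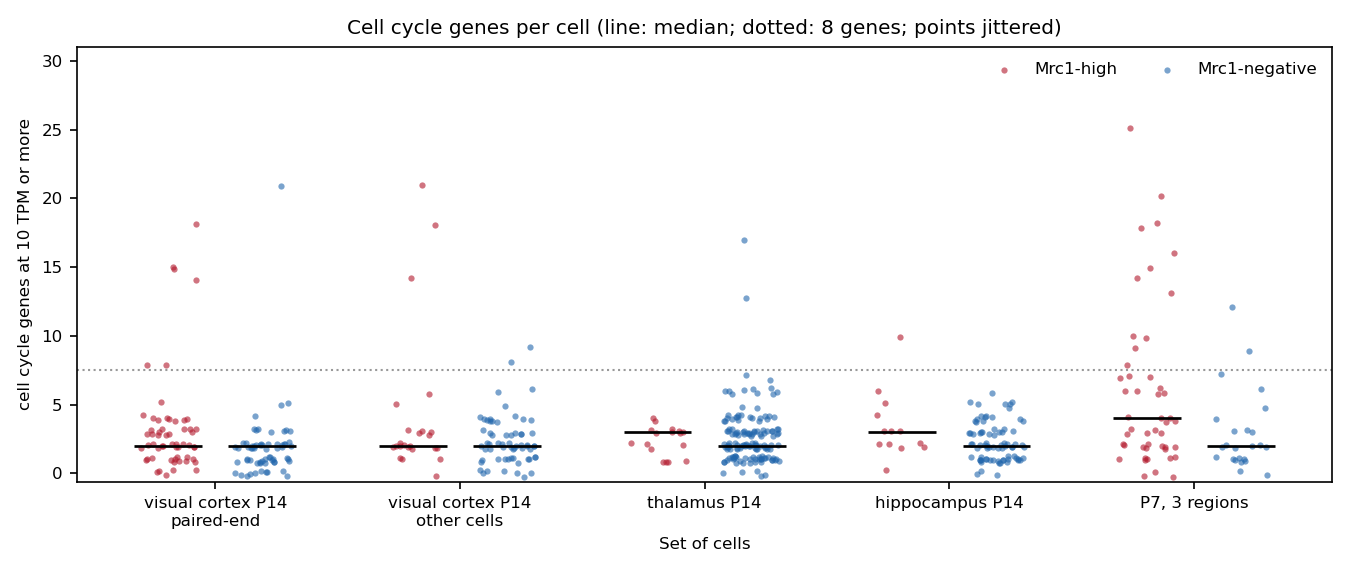
Number of cell cycle genes at 10 TPM or more in each Mrc1-high (red) and Mrc1-negative (blue) cell, in paired-end P14 visual cortex and in 4 sets of cells that the grouping did not use; lines are medians and the dotted line is at 8 genes. Most cells of each group hold few such genes, and 6 of 58 Mrc1-high cells against 1 of 64 Mrc1-negative cells reach 8 in the leftmost set.

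Several other genes differed in the share of cells that carried them, and these were named after their values were seen. Zeb2, a zinc-finger transcription factor of the myeloid lineage, was seen in 46 of 58 Mrc1-high cells (79.3%, 66.6 to 88.8), 17 of 28 cells between (60.7%) and 31 of 64 Mrc1-negative cells (48.4%, 35.8 to 61.3). Over all cells the intervals of the outer groups did not overlap, but they cover counting error over cells only. Zeb2 was picked by its difference in these same cells, so the intervals are no separate check. Its median was 62.3 TPM in Mrc1-high cells and 0.58 TPM in Mrc1-negative cells. Without the cells under 1000 genes it was seen in 53.4% of Mrc1-negative cells (39.9 to 66.7), and the intervals then overlapped slightly. Ccl3, a chemokine of activated macrophages, was seen in 37 of 58 Mrc1-high cells (63.8%, 50.1 to 76.01) and 20 of 64 Mrc1-negative cells (31.2%, 20.2 to 44.1). Its means of 738 and 714 TPM in Mrc1-high and Mrc1-negative cells differed little, and its highest value, 14843 TPM, was in an Mrc1-negative cell.

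Emr1, which encodes the F4/80 protein that the sort used, was seen in 49 of 58 Mrc1-high cells and 42 of 64 Mrc1-negative cells, with means of 698 and 350 TPM in Mrc1-high and Mrc1-negative cells. Without the cells under 1000 genes it was seen in 70.7% of Mrc1-negative cells. The other genes of the sort differed less. Ptprc, which encodes CD45, averaged 380 TPM in Mrc1-high cells and 338 TPM in Mrc1-negative cells, and Itgam, which encodes CD11b, averaged 483 and 369 TPM in Mrc1-high and Mrc1-negative cells. Their log2 ratios were -0.74 for Ptprc and -0.57 for Itgam in the lower-numbered run, and 0.54 and 0.94 in the higher-numbered one. Emr1 stood at 1.39 in the lower-numbered run and 0.82 in the higher-numbered one.

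Sall3, a relative of Sall1, ran the other way. It was seen in 9 of 58 Mrc1-high cells and 23 of 64 Mrc1-negative cells, with means of 14.5 and 71.4 TPM and a log2 ratio of -2.22. Tgif1, a homeobox repressor of TGF-beta targets, was seen in 22 of 58 Mrc1-high cells and 12 of 64 Mrc1-negative cells, with means of 134.8 and 28.5 TPM. Of the 17 measured macrophage transcription factors, 2 were higher (Zeb2 and Tgif1) and 2 were lower, with a median of 0.22. Tgfbr2, the TGF-beta type II receptor, averaged 165.4 TPM in Mrc1-high cells and 47.4 TPM in Mrc1-negative cells, and the 14 measured genes of TGF-beta signalling held 4 higher and 3 lower, or 2 and 5 without the cells under 1000 genes.

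Among 20 lysosomal genes 3 were higher and 0 lower (median 0.24), or 3 and 2 without the cells under 1000 genes. The 3 were Lamp2, a lysosomal membrane protein, Psap, the precursor of the saposins, and Ctsh, a cathepsin. Lamp2 had a lowest, median and highest value of 0, 1032 and 4153 TPM in Mrc1-high cells, against 0, 217.7 and 3793 TPM in Mrc1-negative cells. Psap averaged 240 TPM in Mrc1-high cells and 86.5 TPM in Mrc1-negative cells. The 2 groups overlapped over nearly the whole range of Lamp2, while its median in Mrc1-negative cells was 256.8 TPM without the cells under 1000 genes.

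Receptors for uptake other than Mrc1 did not stand higher. Of 16 measured endocytic and scavenger receptors, 1 was higher and 4 were lower, with a median of -0.05. Fcgr1, the high-affinity receptor for IgG, averaged 99.6 TPM in Mrc1-high cells and 230 TPM in Mrc1-negative cells. The lectin receptors Clec5a and Clec4a3 averaged 73.8 and 96.4 TPM in Mrc1-high cells, against 165.4 and 166.8 TPM in Mrc1-negative cells, but Clec4a3 had a log2 ratio of 2.15 in the lower-numbered run. Genes of alternative activation, the state for which Mrc1 is a common marker, were mostly silent. Of that list of 16, 7 were measured, with 3 higher, 0 lower and a median of 0.76 that was -0.051 in the lower-numbered run. Arg1, arginase, was seen in 1 Mrc1-high cell and no Mrc1-negative cell, while Retnla and Chil3 were listed at 0 in every cell.

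Inflammatory genes held 7 of 19 higher and 0 lower (5 and 0 without the cells under 1000 genes), with a median of 0.43. Tnfaip3, a brake on NF-kB signalling, was seen in 34 of 58 Mrc1-high cells and 29 of 64 Mrc1-negative cells, with means of 299 and 130 TPM. Il1a, an interleukin-1 gene, averaged 496 TPM in Mrc1-high cells and 260.8 TPM in Mrc1-negative cells. Among interferon response genes 7 of 10 stood higher and 0 lower, at a median of 1.46, but the median difference of mean log2(TPM + 1) was only 0.15. Irf9, which carries the interferon signal to the nucleus, averaged 131.6 TPM in Mrc1-high cells and 13.3 TPM in Mrc1-negative cells and was seen in 13 of 58 and 9 of 64 cells.

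Disease-associated microglia genes held 8 of 19 higher and 1 lower. Apoe, the lipid carrier among them, averaged 1593 TPM in Mrc1-high cells and 414 TPM in Mrc1-negative cells, but 1 Mrc1-high cell had 66231 TPM and Apoe was seen in 25 of 58 Mrc1-high and 30 of 64 Mrc1-negative cells. Lipid handling genes held 5 of 16 higher and 3 lower, and Plin2, a coat protein of lipid droplets, averaged 54.7 TPM in Mrc1-high cells and 243.7 TPM in Mrc1-negative cells. Immediate early genes, which respond to cell handling, held 1 of 17 higher and 2 lower, and Fos averaged 2891 TPM in Mrc1-high cells and 3740 TPM in Mrc1-negative cells. Heat shock genes held 2 of 7 higher (median 0.33), complement 1 of 8 (0.27), migration genes 5 of 11 (0.49) and MHC class I genes, whose near-identical copies may share reads, 4 of 9 (0.55), and over all cells 0 were lower in these 4 lists. MHC class II genes held 2 of 3 higher and 1 lower, with a median of 1.22 that was -0.034 in the lower-numbered run. Fetal and imprinted genes held 1 of 4 higher and 1 lower, sex-linked genes 2 of 6 higher and 2 lower, and glycolysis 0 of 11 higher and 2 lower. Without the 6 Mrc1-negative cells under 1000 genes, heat shock held 2 higher and 1 lower, migration 3 of 12 higher and 2 lower and MHC class I 2 higher and 0 lower. Over the same remaining cells glycolysis held 0 higher and 4 lower, immediate early genes 2 and 2, and sex-linked genes 1 and 3.

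**Figure D4:**
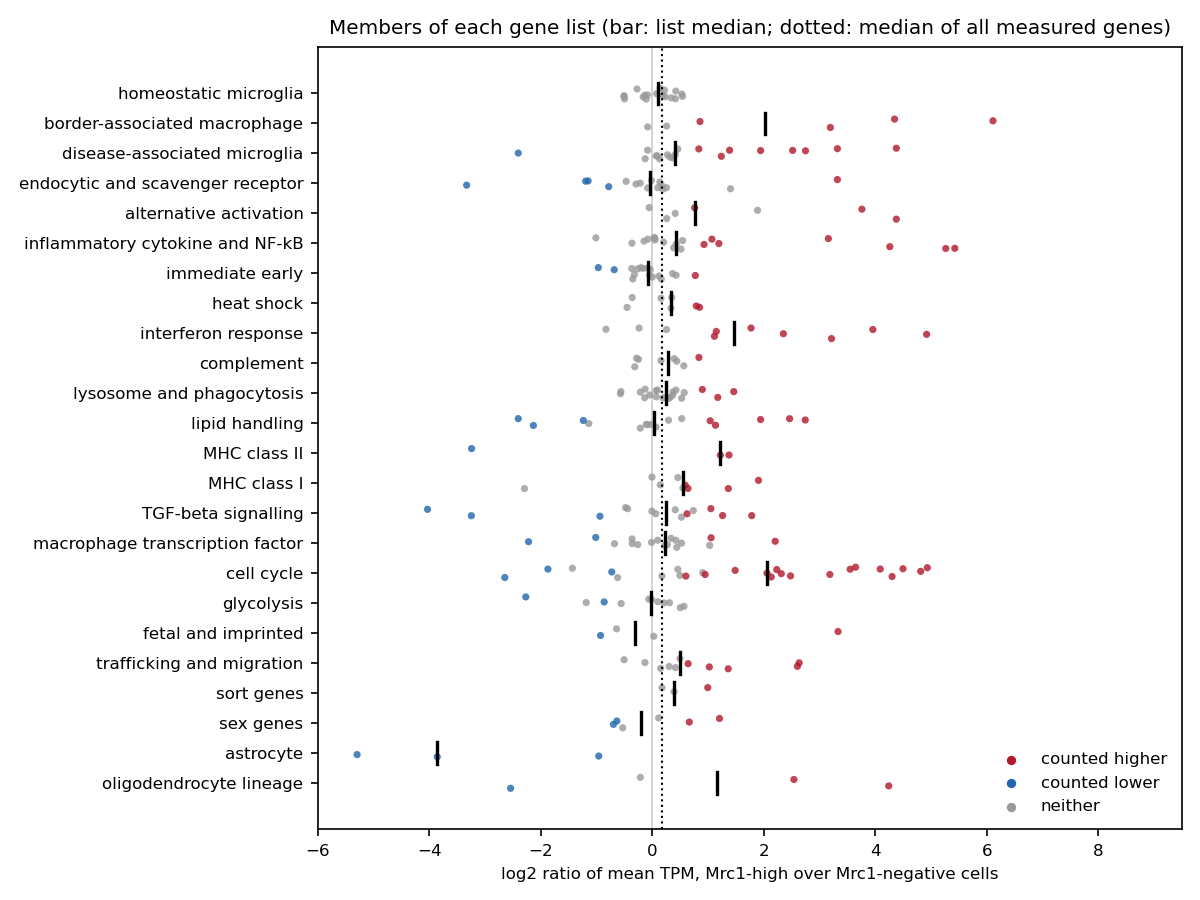
Log2 ratio of mean TPM, Mrc1-high over Mrc1-negative cells, for every measured member of each list with 3 or more measured members (red: counted higher; blue: counted lower; grey: neither); black bars are list medians and the dotted line is the median of all measured genes, 0.17. The cell cycle and border-associated lists have medians above 2, and the 18 homeostatic genes stay between -0.51 and 0.54.

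The genes named by size of ratio, under limits given in full with the processing, were carried by few cells. With a mean of 50 TPM or more and 1 TPM or more in 25% of the cells of the higher group, the 12 largest ratios above 0 belonged to Mettl17, Stx4a, Tmc4, Polr2b, Tmem69, G6pdx, Nif3l1, Mms19, Trappc12, Klhl7, Prkrip1 and Gga3. Mettl17, a factor of the mitochondrial ribosome, averaged 140 TPM in Mrc1-high cells and 0.963 TPM in Mrc1-negative cells, yet its median was 0 in both groups and 1 Mrc1-high cell had 3799 TPM. Polr2b, a subunit of RNA polymerase II, averaged 153.3 TPM in Mrc1-high cells, of which 16 carried it, and 5.45 TPM in Mrc1-negative cells, of which 5 carried it. G6pdx, the first enzyme of the pentose phosphate pathway, averaged 122.6 TPM in Mrc1-high cells and 4.28 TPM in Mrc1-negative cells, and was seen in 15 and 3 cells.

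In the lower direction the 12 were Suclg1, Slx1b, Hmgn1, Med23, Cdip1, Cars, Ankhd1, Gtf2a2, Poldip2, Itpr2, Dnajb9 and Usp40. Suclg1, a subunit of succinyl-CoA ligase, averaged 2.27 TPM in Mrc1-high cells and 90.9 TPM in Mrc1-negative cells, but was seen in 23 of 58 and 17 of 64 cells. Hmgn1, a nucleosome-binding protein, averaged 4.69 TPM in Mrc1-high cells and 84.4 TPM in Mrc1-negative cells, and was seen in 9 and 19 cells. Over all genes, 20.7% of those counted higher and 25.3% of those counted lower fell short of 1.5-fold without the single highest cell of each group.

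The same division was made in 4 sets of cells that had no part in choosing the 58 and 64 cells. Mrc1-high cells made up 38.7% (30.8 to 46.95) of the paired-end P14 visual cortex cells. They made up 20% (13.3 to 28.3) of the 120 P14 visual cortex cells not described as paired-end, 8.95% (5.30 to 13.9) of 190 cells of P14 thalamus and 11.02% (5.998 to 18.1) of the cells of P14 hippocampus. At P7, over the 3 regions, they made up 43.6% (34.2 to 53.4) of 110 cells. Layout cannot be told apart from region between the paired-end cortex and the P14 thalamus and hippocampus.

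Border-associated genes set the P7 cells apart from the paired-end P14 cells of visual cortex. The P7 set pools 34 cells of hippocampus, 44 of thalamus and 32 of visual cortex, so age cannot be told apart from region here. At P7, 9 of 11 measured genes of that list were higher in Mrc1-high cells and 1 was lower, with a median of 4.80, and F13a1 and Lyve1 had log2 ratios of 6.65 and 5.21, beside 45.2% higher and 24.6% lower of all genes. In paired-end P14 visual cortex both were listed at 0. Of the same list, P14 thalamus gave 4 of 7 measured genes higher and 1 lower (median 1.24), beside 24.9% and 36.8% of all genes. P14 hippocampus gave 2 of 4 higher and 0 lower (0.67), beside 30.6% and 32.4%. The other P14 visual cortex cells gave 1 of 4 higher and 0 lower (-0.05), beside 35.8% and 26.7%.

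For the cell cycle the other P14 visual cortex cells gave 19 of 23 genes higher and 0 lower, with a median of 2.92, beside 35.8% higher and 26.7% lower of all genes. P14 hippocampus gave 7 of 12 higher and 2 lower (median 1.08), beside 30.6% and 32.4% of all genes. P14 thalamus went the other way, with 2 of 19 higher and 11 lower (median -1.54), beside 24.9% and 36.8% of all genes. At P7, 21 of 28 were higher and 1 was lower, with a median of 3.17. Cells with 8 or more cell cycle genes were 3 of 24 Mrc1-high and 2 of 63 Mrc1-negative in the other visual cortex cells, 0% (0 to 19.5) and 1.40% (0.170 to 4.96) in thalamus, 1 of 13 and 0 of 78 in hippocampus, and 12 of 48 and 2 of 24 at P7.

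Stmn1 was seen in 10 of 24 Mrc1-high cells (41.7%) and 10 of 63 Mrc1-negative cells (15.9%) of the other P14 visual cortex set. Its shares were 29.4% and 24.5% in thalamus, 30.8% and 20.5% in hippocampus and 56.2% and 54.2% at P7, in Mrc1-high and Mrc1-negative cells. Zeb2 was closer between groups than in the paired-end cells, with 83.3% of Mrc1-high and 73% of Mrc1-negative cells in the other visual cortex set and 88.2% and 81.1% in thalamus, 84.6% and 83.3% in hippocampus and 58.3% in both groups at P7. Sall3 was seen in more Mrc1-high than Mrc1-negative cells of the other visual cortex set (50% and 28.6%), hippocampus (38.5% and 30.8%) and P7 (37.5% and 16.7%), the reverse of the paired-end cells. In thalamus it was seen in 23.5% of Mrc1-high and 41.96% of Mrc1-negative cells, the same order as in the paired-end cells. Median Lamp2 was 949 TPM in Mrc1-high and 178.1 TPM in Mrc1-negative cells of that set, 677 and 385 TPM in thalamus, 464 and 216.98 TPM in hippocampus, and 360 and 421 TPM at P7. Genes per cell were also higher in Mrc1-high cells of each set, for example a median of 4190 against 3888 in the other visual cortex cells. Ccl3 was seen in 58.3% of Mrc1-high and 38.1% of Mrc1-negative cells of the other visual cortex set. Its shares were 61.5% and 43.6% in hippocampus and 75% and 58.3% at P7, but 58.8% and 63.6% in thalamus. Tgif1 kept its order in the P14 sets and reversed at P7 (25% and 33.3%). Emr1 was level in thalamus (88.2% and 88.1%) and kept its order in the other sets.

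Most genes did not repeat. Of genes counted higher here and measured in both sets, 36.9% were also higher in the other P14 visual cortex cells, where 34.98% of all genes measured in both were higher. The 1045 shared genes were 35.6% of those counted higher there. The share was 25.95% in thalamus against 23.6% of all genes, 30.4% in hippocampus against 28.8%, and 47.3% at P7 against 43.8%. The 2 title runs gave a like figure, since 41.04% of genes higher in the lower-numbered run were higher in the other, against 38.5% of all genes. Of the 12 higher genes named by size, none was counted higher in the other P14 visual cortex cells, and 4 were counted lower. In thalamus 2 were counted higher and 4 lower, in hippocampus 5 and 2, and at P7 4 and 3.

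Of 6612 genes measured in all 5 sets, 34 were higher in Mrc1-high cells of every set and 13 were lower, while 27 were higher here and lower in the other 4, and 21 were lower here and higher in the other 4. Among genes measured here and in another set, 23.6% to 43.8% were counted higher there and 23.3% to 35.6% lower. The counts that these shares alone would give were not worked out, so the 34 and 13 are given as counts only and are not read as repetition. The following were picked from the 34 after their values were seen. Cnot2, a subunit of the CCR4-NOT deadenylase, averaged 210.7 TPM in Mrc1-high cells and 81.97 TPM in Mrc1-negative cells, with log2 ratios of 1.35 here and 0.79 to 2.002 elsewhere. Eif5, a translation initiation factor, averaged 260 and 127.3 TPM in Mrc1-high and Mrc1-negative cells. Prim2, a primase subunit, averaged 52.6 TPM in Mrc1-high cells and 21.6 TPM in Mrc1-negative cells, and Ssrp1, a histone chaperone, averaged 92.003 TPM in Mrc1-high cells and 36.1 TPM in Mrc1-negative cells. Dtl, a ubiquitin ligase adaptor that acts in S phase, averaged 22.3 TPM in Mrc1-high cells and 0.217 TPM in Mrc1-negative cells. It was seen in only 10.3% of Mrc1-high and 1.56% of Mrc1-negative cells. Rb1, the retinoblastoma protein, averaged 53.4 TPM in Mrc1-high cells and 24.2 TPM in Mrc1-negative cells. Not all of the 34 kept their direction in both title runs. Sertad3 had log2 ratios of 5.12 in the lower-numbered run and -4.23 in the higher-numbered one, and Ranbp6 had 5.63 and -2.49. Among the 13 lower genes, Mrpl24, a mitochondrial ribosomal protein, averaged 47.4 TPM in Mrc1-high cells and 131.1 TPM in Mrc1-negative cells.

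**Figure D5:**
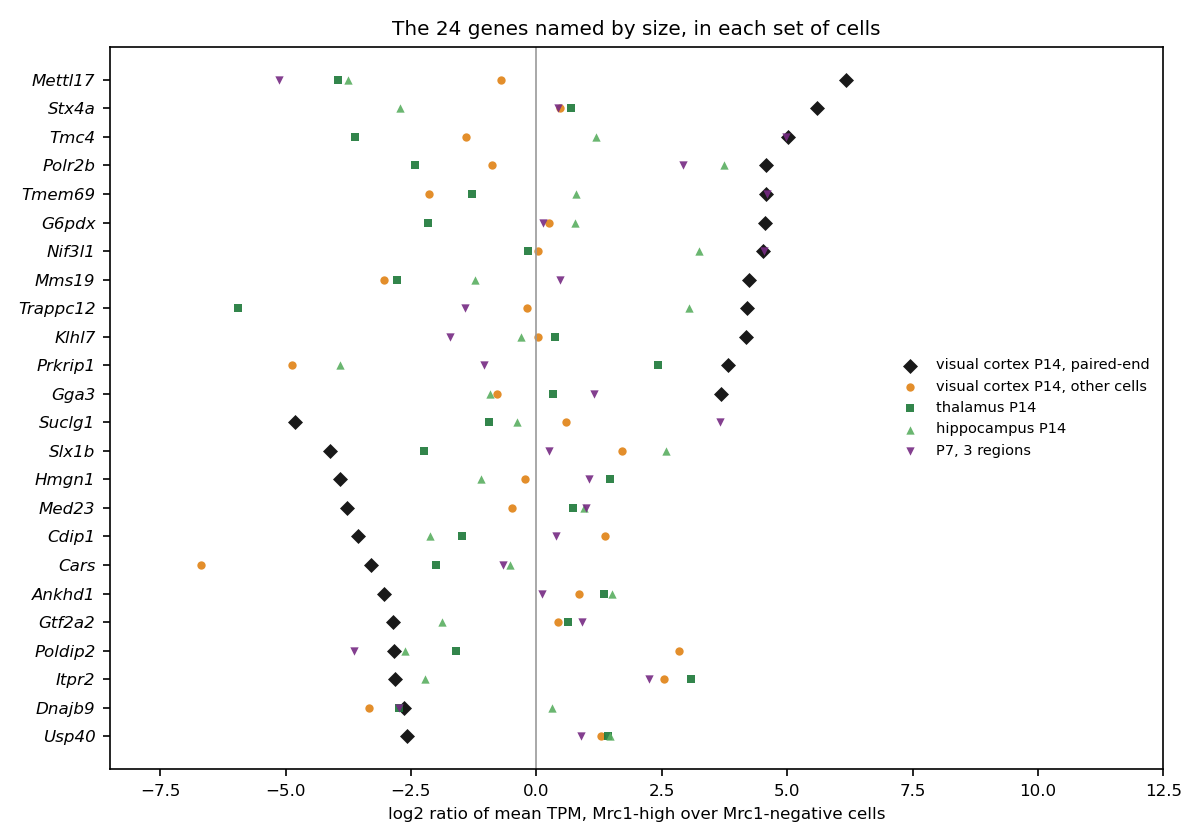
Log2 ratio of mean TPM, Mrc1-high over Mrc1-negative cells, of the 24 genes named by size of ratio, in 5 sets of cells. Black diamonds are paired-end P14 visual cortex, where the 24 had the largest ratios among genes that met the limits for naming. Other symbols are the 4 other sets. The other sets scatter on both sides of 0. Of the 12 higher genes, 0 were also counted higher in the other P14 visual cortex cells, 2 in thalamus, 5 in hippocampus and 4 at P7.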

How the data were processed

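Single cells of mouse brain macrophages were measured, with 1 cell per sample. The authors deposited 1 table of TPM values per gene and cell. The submitters' processing notes name RSEM 1.2.19, Seurat and GRCm38, and the sources used here give neither aligner nor annotation. TPM keeps no depth, reads per cell are therefore unknown, and 929 columns of other ages were not used. No 2 columns used were identical. Coordinates are from GENCODE M21.

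The members, the 34 gene lists and the limits were chosen with earlier results of these data known. Mean TPM plus 1 TPM was compared between groups, with no test, as no animal is named. Named genes needed a mean of 50 TPM, 1 TPM in 25% of the cells of the higher group and 1.5-fold without the highest cell of each group (the 12 largest ratios each way, leaving out pseudogenes, Xist and genes that are mitochondrial, Y-linked, predicted or of ribosomal proteins); up to 4 members per list at 50 TPM, by size of ratio; and Sall1. Others were named after their values were seen. The ratio was tested on simulated data. Another 16 settings were tried, 1 of them added after seeing the data. Python 3.11.15, numpy 2.4.6, pandas 2.3.3 and scipy 1.17.1 were used.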

Additional observations from a re-analysis of the deposited data

How the results depend on the processing

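Depth per cell is unknown, and no value here has a replicate. The homeostatic median was largest as a difference of mean log2(TPM + 1), 0.68, and was -0.025 on that scale without cells under 1000 genes, a setting added after seeing the data. Genes per cell stayed higher in Mrc1-high cells wherever it was recomputed. Genes counted higher and lower were 2255 and 1367 with a mean of 20 TPM required, which tests fewer genes, and 1587 and 284 with the difference of mean log2(TPM + 1), which splits all genes into 15.8% higher and 2.83% lower. On that scale without cells under 1000 genes they were 1049 and 562. Without cells under 1000 genes the split was 32.3% and 26.3%. Rescaling cells by the median of ratios moved the median of all genes to 0.06.

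The border-associated median was 0.81 with 10 TPM added and 3.61 with 0.1 TPM added. It was 0.85 with a mean of 20 TPM required and 0.55 with no filter. As a difference of mean log2 it was 0.30 (0.21 without cells under 1000 genes). It was 0.84 without the top cell of each gene, 0.54 in the higher-numbered run and 0.59 in cells above the median of genes. Without cells with 2 or more of its markers it was 0.15. Those cells were picked by the same genes, so a lower value follows from the choice and is no separate check. That the median rests on few cells is seen from the counts of cells given above for Pf4, Folr2 and Ms4a7. Sall1 was -0.12 in the lower-numbered run.

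Of 1648 values of named genes, 22 reversed, in 15 genes, and the cause was not tested. In the lower-numbered run these were Gtf2a2 (0.18), Clec4a3 (2.15), Cxcl10 (-6.55), Egr2 (1.10), H2-DMb1 (-0.034), Tpi1 (0.86), Eif2s3y (-0.10) and Slc1a3 (0.71), with the medians of alternative activation (-0.051) and MHC class II (-0.034). In the higher-numbered run they were Lyz2 (-0.75), Ccr1 (-1.85) and Cd79b (0.045). In cells at or below the median of genes they were Cxcl10 (-1.96), Egr2 (0.017), H2-M3 (-0.63) and the oligodendrocyte median (-0.51), and above it Eif2s3y (-0.44). Without cells with 2 or more border-associated markers they were Lyz2 (-0.037) and Cxcl10 (-0.41). As a difference of mean log2 without cells under 1000 genes they were Gtf2a2 (0.0052), Apoe (-0.11), Cxcl10 (-0.051) and the alternative activation median (-0.051). Hsp90aa1 was -1.57 after rescaling and Mcm3 was -2.77 with Mrc1-high set at 200 TPM. No paired analysis was possible because each sample is 1 cell and no number links cells of the groups.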
